A study of Mus musculus with 8 samples.

Results

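The mitochondrial chromosome of the mouse gave 37 of the 53715 genes in the RNA table, taken by 1 rule: every gene identifier whose symbol starts with mt-. They comprise 13 genes for proteins, 2 for ribosomal RNAs and 22 for transfer RNAs. RNA came from 8 libraries of Sting-/- mouse macrophages, which lack their own STING, an adaptor protein that answers cyclic dinucleotides. The 4 groups, of 2 libraries each, carried no transgene (no_transgene, with MSCV2.2, a retroviral vector, in the sample titles), mouse STING (mSTING), mouse STING without its C-terminal tail (mSTING-dCTT, here dCTT) or mouse STING with the tail of the zebrafish protein (mSTING-zfCTT, here zfCTT). All cells expressed their construct stably on the Sting-/- background and were stimulated for 4 h with CMA at 500 µg/ml. CMA is 10-carboxymethyl-9-acridanone, a small molecule that activates mouse STING, and no library shows unstimulated cells. The title of the series places the comparison in how the STING tail shapes interferon and NF-κB signalling.

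Mitochondria keep a small circular chromosome of their own. It encodes only core subunits of the respiratory chain and of ATP synthase, together with the rRNAs and tRNAs needed to translate them inside the organelle. Both strands are transcribed into long precursors, and excision of the tRNAs that punctuate them frees most of the mRNAs, which then receive short poly(A) tails. In macrophages the organelle also bears on innate immunity, because mitochondrial DNA released into the cytosol can be sensed by cGAS, the enzyme that makes the dinucleotide ligand of STING.

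The mitochondrial mRNAs were lower in zfCTT than in the other 3 groups. Both zfCTT libraries lay below all 6 other libraries for 13 of 13 protein-coding genes, for 1 of 2 rRNA genes and for 11 of 21 tested tRNA genes. The same held for 10.9% of the 13475 tested genes. Mean RPKM in the other 6 libraries was between 1.70 times (mt-Co1) and 3.27 times (mt-Cytb) the zfCTT mean. Passing the test across all genes was limited to mt-Atp6 and mt-Atp8 against no_transgene, to those and mt-Cytb, mt-Td and mt-Ts1 against dCTT, and to no mitochondrial gene against mSTING. Of all tested genes 1.08% passed against no_transgene, 0.119% against mSTING and 1.08% against dCTT. In comparisons among the other 3 groups no mitochondrial gene passed, and 0% of all tested genes did.

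Sequences are from the GENCODE M21 transcripts of GRCm38. They are shown for mt-Atp8, mt-Td and mt-Ts1, which passed in a comparison above, and for mt-Tg, which passed in none. In mt-Atp8 (chrM:7766-7969, plus strand), which encodes a small subunit of ATP synthase, the capitals mark the 43 bases, from 7927 to 7969, that also begin mt-Atp6, the next subunit gene. In the tRNAs for aspartate (mt-Td, chrM:6942-7011, plus strand), one serine acceptor (mt-Ts1, chrM:6870-6938, minus strand) and glycine (mt-Tg, chrM:9391-9458, plus strand) the capitals mark the anticodon. Levels listed for the first 2 tRNA genes fell in zfCTT against dCTT, and the third was higher in replicate 2 than in replicate 1 of every group.
mt-Atp8: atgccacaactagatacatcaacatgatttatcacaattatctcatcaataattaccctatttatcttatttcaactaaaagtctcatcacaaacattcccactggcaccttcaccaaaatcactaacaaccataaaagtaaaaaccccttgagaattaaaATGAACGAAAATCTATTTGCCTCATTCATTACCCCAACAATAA
mt-Td: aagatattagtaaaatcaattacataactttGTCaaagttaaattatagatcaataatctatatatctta
mt-Ts1: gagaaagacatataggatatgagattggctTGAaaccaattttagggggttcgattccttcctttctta
mt-Tg: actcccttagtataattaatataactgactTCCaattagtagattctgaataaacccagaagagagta

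Of the 37 genes, 28 lie on the plus strand and 9 on the minus strand. The minus-strand genes are mt-Nd6 and 8 tRNA genes. The frames of 10 mRNAs end in a complete stop codon, and those of mt-Co3, mt-Nd4 and mt-Cytb end in a lone T, which the added poly(A) tail completes. GC content of the 13 mRNAs ran from 31.9% to 41.1%. mt-Nd4l and mt-Nd4 share 7 bases, and mt-Nd5 and mt-Nd6 share 14 on opposite strands. Strand handling in the counting is not given in the sources used here, so reads in shared bases cannot be assigned to 1 partner.

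Levels are given as RPKM, reads per kilobase of gene scaled to the size of the library, which sets genes of different length on 1 scale. Depth recovered from the steps of the values was 20.1 and 34.8 M reads in zfCTT and 27.7 to 171 M in the other libraries, so zfCTT held the shallowest library. In a principal component plot of all tested genes, zfCTT replicate 1 stood apart on the first component. On the next, no_transgene replicate 1 (59.7) and dCTT replicate 1 (30.7) were far out on the positive side. mSTING replicate 1 (−30.1) was far out on the negative side. Tmem173, the gene for STING, was at 3.23 and 2.42 RPKM in no_transgene and at 10.6 to 22.7 in the 6 libraries with a construct. Of 10 macrophage markers 9 passed the low-value filter (RPKM of 1 or more in 2 or more libraries), with summed levels of 858 to 1048 in zfCTT and 831 to 1287 in the other groups. Single markers behind these sums moved differently. Fcgr1 was at 34.04 and 21.6 in zfCTT and at most 18.5 elsewhere. Itgam, at 5.97 and 6.78 in zfCTT, was lower there than in no_transgene and dCTT. Lyz2 ran from 50.02 to 486 across libraries. No B cell, fibroblast, epithelial or neutrophil marker reached 1 in any library, and of 4 T cell markers only Lck did, at up to 1.83. No label names a group's 2 libraries as separate cultures, and the spread behind each p-value may be technical.

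Reads on the 37 genes made up 0.191% and 0.143% of all reads in the table in the no_transgene libraries (95% Wilson intervals 0.189% to 0.192% and 0.143% to 0.144%). The shares were 0.198% and 0.144% in mSTING and 0.221% and 0.210% in dCTT. In zfCTT they were 0.0802% and 0.0826%, with intervals of 0.0790% to 0.0815% and 0.0817% to 0.0835%. Both zfCTT shares lay below all 6 others, and the spread within zfCTT was smaller than within no_transgene or mSTING. Mean shares were 0.167% ± 0.0336 in no_transgene, 0.171% ± 0.0379 in mSTING, 0.215% ± 0.00782 in dCTT and 0.0814% ± 0.00168 in zfCTT (SD, n = 2 libraries). The intervals cover counting error only, and the share was not tested, since it sums over genes chosen with earlier results known. As these are whole-culture RNAs, fewer cells of a type and less RNA per cell cannot be told apart. In every library the mRNAs supplied most of these reads, 93.3% to 95.8%, against 2.42% to 4.79% from the rRNA genes and 1.75% to 2.31% from the tRNA genes.

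**Figure D1:**
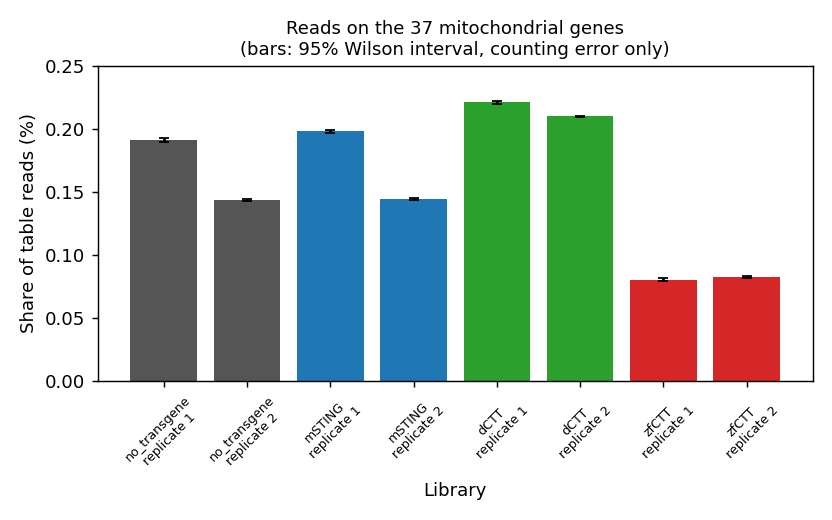
Share of all reads in the table (y axis, percent, from 0) that fell on the 37 mitochondrial genes in each of the 8 libraries (x axis); bars are coloured by group and error bars are 95% Wilson intervals, counting error only. The zfCTT libraries stand at 0.0802% and 0.0826%, below the other 6, which run from 0.143% to 0.221%.

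Complex I, NADH dehydrogenase, takes electrons from NADH into the chain, and 7 of its subunits are made in mitochondria. mt-Nd1, at the membrane arm's junction with the quinone site, was at 170.1 and 99.3 in no_transgene, 153 and 103 in mSTING, 163 and 158 in dCTT and 66.9 and 61.4 in zfCTT RPKM. mt-Nd6, the only protein gene of the minus strand, was at 107 and 70.9 in no_transgene, 172 and 81.99 in mSTING, 111 and 126 in dCTT and 46.4 and 36.2 in zfCTT. mt-Nd5, the subunit at the far end of the proton-pumping arm, was at 35.02 and 21.5 in no_transgene, 58.7 and 20.96 in mSTING, 44.1 and 41.04 in dCTT and 15.5 and 11.6 in zfCTT. For these 3 the zfCTT libraries were the lowest 2, while within no_transgene and mSTING replicate 1 exceeded replicate 2 each time. mt-Nd2, another antiporter-like pump subunit, was at 39.1 and 14.5 in no_transgene, 30.5 and 14.4 in mSTING, 35.9 and 23.6 in dCTT and 11.9 and 8.83 in zfCTT. mt-Nd4, the third of that kind, was at 22.7 and 21.4 in no_transgene, 25.9 and 21.04 in mSTING, 21.4 and 43.3 in dCTT and 10.6 and 11.2 in zfCTT. In mt-Nd4 dCTT replicate 2 was the highest library, and the zfCTT values were close to each other. mt-Nd4l, a small membrane subunit, was at 29.02 and 26.7 in no_transgene, 26.4 and 25.6 in mSTING, 24.8 and 56.04 in dCTT and 21.2 and 13.8 in zfCTT. mt-Nd3, also small, was at 6.22 and 3.63 in no_transgene, 5.61 and 3.19 in mSTING, 7.79 and 4.32 in dCTT and 2.15 and 1.9 in zfCTT. mt-Nd3 was the lowest of the 13 mRNAs in every library and rested on as few as 15 reads in zfCTT replicate 1.

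None of the 7 complex I genes passed the test in any comparison. At most 1.08% of all genes did, so 7 genes could hold no call without differing from other genes. For all 7, zfCTT lay wholly below each other group. The same held for 20.8% of all genes against no_transgene, 24.4% against mSTING and 24.7% against dCTT. On the log2(RPKM + 1) scale the zfCTT difference from no_transgene ran from −1.14 (mt-Nd2) to −0.67 (mt-Nd4l), with a median of −0.98. The extremes depended on single libraries: mt-Nd2 was at −1.83 without no_transgene replicate 2 and at −0.46 without no_transgene replicate 1, and mt-Nd4l at −0.38 without zfCTT replicate 2. Against mSTING the median was −0.97 and against dCTT −1.40. For mt-Nd1 the difference from no_transgene was −1.01 ± 0.31 (SE, limma adjusted p = 0.224), and from dCTT −1.31 ± 0.31 (adjusted p = 0.126). For mt-Nd6 the difference from dCTT was −1.5 ± 0.38 (limma adjusted p = 0.157).

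Complex III passes electrons from ubiquinol to cytochrome c, and mt-Cytb, cytochrome b, is its only mitochondrial gene. Its levels were 412 and 439 in no_transgene, 460.5 and 457 in mSTING, 489 and 641 in dCTT and 107 and 189 in zfCTT RPKM. It was the highest mRNA in the 3 groups other than zfCTT, in each of their 6 libraries, and both zfCTT libraries were below all of those, though the zfCTT pair had the largest ratio of the 13 mRNAs. Mean levels were 426 ± 18.9, 459 ± 2.303, 565 ± 108 and 148 ± 57.9 in the same order (SD, n = 2). mt-Cytb fell by 1.97 ± 0.29 on the log2 scale in zfCTT against dCTT (SE, limma adjusted p = 0.0428). That call was kept without zfCTT replicate 2 (adjusted p = 0.0361) and lost without any 1 of the other 7 libraries. Against no_transgene the difference was −1.58 ± 0.29 (adjusted p = 0.0656) and against mSTING −1.69 ± 0.29 (adjusted p = 0.159), neither of which passed.

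Complex IV, cytochrome c oxidase, reduces oxygen and is built around 3 mitochondrial subunits. mt-Co1, which carries the catalytic haem and copper centre, was at 378 and 202 in no_transgene, 322 and 211 in mSTING, 418 and 284 in dCTT and 177 and 179 in zfCTT RPKM. mt-Co2, which receives electrons from cytochrome c, was at 235 and 112 in no_transgene, 253 and 117 in mSTING, 304 and 143 in dCTT and 106 and 85.1 in zfCTT. mt-Co3, the third core subunit, was at 119 and 149 in no_transgene, 171 and 143 in mSTING, 189 and 206 in dCTT and 96.7 and 81.2 in zfCTT. zfCTT was lowest for all 3, but replicate 2 of no_transgene and mSTING came near it for mt-Co1 and mt-Co2. The difference of zfCTT from no_transgene was −0.63 ± 0.37 for mt-Co1, −0.76 ± 0.55 for mt-Co2 and −0.58 ± 0.20 for mt-Co3 (SE, limma adjusted p = 0.524, 0.599 and 0.297). These values hung on no_transgene: without its replicate 1 mt-Co1 was at −0.18 and mt-Co2 at −0.23, and without its replicate 2 they were at −1.08 and −1.30. Against dCTT, mt-Co3 differed by −1.14 ± 0.20 (adjusted p = 0.0637). No complex IV gene passed the test, which at most 1.08% of all genes did in any comparison.

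Complex V, ATP synthase, uses the proton gradient to make ATP, and mt-Atp6 and mt-Atp8 encode parts of its membrane sector. mt-Atp6, which forms the proton path, was at 229 and 245 in no_transgene, 279.9 and 232 in mSTING, 289 and 331 in dCTT and 111 and 100.4 in zfCTT RPKM. mt-Atp8 was at 345 and 345 in no_transgene, 346 and 307 in mSTING, 328 and 455 in dCTT and 127 and 117 in zfCTT. Outside zfCTT the 6 libraries ran from 229 to 331 for mt-Atp6 and from 307 to 455 for mt-Atp8, and zfCTT was below both ranges. Mean mt-Atp6 was 237 ± 11.1 in no_transgene, 256 ± 34.2 in mSTING, 309.9 ± 29.2 in dCTT and 106 ± 7.56 in zfCTT (SD, n = 2). Mean mt-Atp8 was 345 ± 0.396, 327 ± 27.9, 392 ± 90.2 and 122 ± 7.18 in that order. Against no_transgene, mt-Atp6 fell by 1.158 ± 0.18 (SE, limma adjusted p = 0.0483) and mt-Atp8 fell by 1.49 ± 0.21 (adjusted p = 0.0374) on the log2 scale. Against dCTT, mt-Atp6 fell by 1.54 ± 0.18 (adjusted p = 0.0248) and mt-Atp8 fell by 1.65 ± 0.21 (adjusted p = 0.0267). Against mSTING the differences were −1.26 ± 0.18 and −1.41 ± 0.21, with adjusted p of 0.108 and 0.1098, and did not pass. Leaving out any 1 of the 8 libraries ended both calls against no_transgene, with differences of −1.23 to −1.09 for mt-Atp6 and −1.55 to −1.43 for mt-Atp8. Because the end of mt-Atp8 is the start of mt-Atp6, as shown above, the 2 are not independent measurements.

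**Figure D2:**
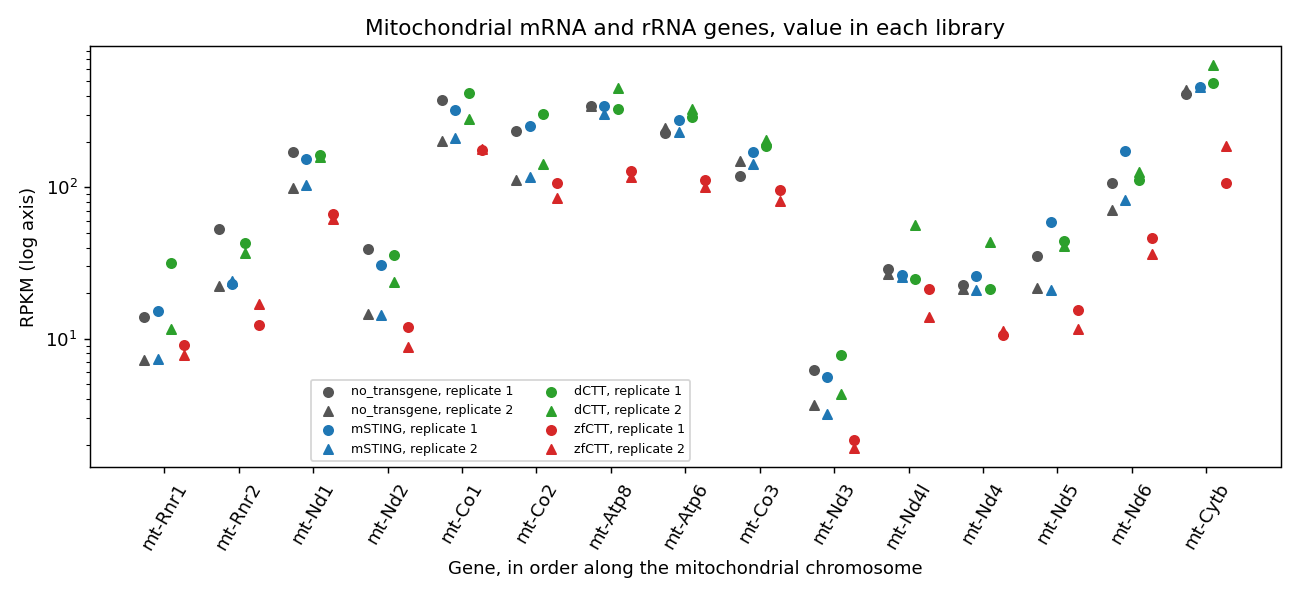
RPKM on a log axis (y) of the 13 mRNA and 2 rRNA genes in their order along the mitochondrial chromosome (x); each point is 1 library, coloured by group, with circles for replicate 1 and triangles for replicate 2. The zfCTT points lie lowest for each gene except mt-Rnr1, where no_transgene and mSTING replicate 2, at 7.27 and 7.35, lie below zfCTT at 7.79 and 9.14.

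The proportions among the 13 mRNAs were compared next. mt-Co1 made up 19.6% and 19.98% of the summed RPKM of the 13 mRNAs in zfCTT and 11.3% to 17.8% elsewhere. mt-Co3 made up 10.8% and 9.06% in zfCTT and 5.59% to 8.52% elsewhere. For these 2 genes both zfCTT libraries were above all 6 others, and for the other 11 the ranges overlapped. mt-Cytb, for example, was at 11.9% and 21.03% in zfCTT and 19.4% to 26.3% elsewhere. These proportions were not tested.

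The libraries were made from polyadenylated RNA, per the labels, and the 2 rRNA genes were read in all of them. mt-Rnr1, the small-subunit 12S rRNA, was at 13.9 and 7.27 in no_transgene, 15.3 and 7.35 in mSTING, 31.6 and 11.6 in dCTT and 9.14 and 7.79 in zfCTT RPKM, and its zfCTT values lay within the range of no_transgene and of mSTING. mt-Rnr2, the 16S rRNA of the large subunit, was at 53.3 and 22.3 in no_transgene, 22.9 and 24.1 in mSTING, 43.03 and 36.7 in dCTT and 12.4 and 16.99 in zfCTT, and zfCTT was below all 6 other libraries. Neither passed the test: the zfCTT difference from no_transgene was −0.23 ± 0.54 for mt-Rnr1 and −1.20 ± 0.39 for mt-Rnr2 (SE, limma adjusted p = 0.896 and 0.262). Without no_transgene replicate 1 the mt-Rnr1 difference changed sign, to 0.19.

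The tRNA genes are 59 to 75 bases long and mostly rest on few reads: 17 of 22 had under 10 reads in at least 1 zfCTT library. mt-Ts1 was the highest, at 213 and 233 in no_transgene, 216 and 203 in mSTING, 329 and 339 in dCTT and 124 and 133 in zfCTT RPKM, from 171 to 4013 reads. mt-Td followed in replicate 2 of every group and in dCTT replicate 1, at 57.7 and 75.4 in no_transgene, 47.01 and 52.5 in mSTING, 56.97 and 102 in dCTT and 12.1 and 20.1 in zfCTT. In both, all zfCTT values were below the other 6, and for mt-Ts1 both dCTT libraries were above all others. mt-Ts1 fell by 1.38 ± 0.16 in zfCTT against dCTT (SE, limma adjusted p = 0.0248), and mt-Td fell by 2.21 ± 0.35 (adjusted p = 0.0471). The mt-Td call was lost without any 1 of the 8 libraries (adjusted p from 0.0621), and also when all genes were tested (0.1396), when a mean of 5 RPKM was required (0.0559), with median-ratio scaling (0.0530) and with voom on recovered reads (0.135). Against no_transgene the differences were −0.79 ± 0.16 for mt-Ts1 (adjusted p = 0.0874) and −2.01 ± 0.35 for mt-Td (adjusted p = 0.0577), and neither passed. mt-Ts1 lies opposite the end of mt-Co1 and shares 3 bases with it. Strand handling is not given, so its reads may come from either strand. The libraries were made from polyadenylated RNA, and whether reads on tRNA genes come from mature tRNAs was not tested.

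The other 4 tRNA genes with levels above 25 RPKM in some library were mt-Te, mt-Ty, mt-Tg and mt-Tl1. mt-Te, for glutamate, was at 77.9 and 25.6 in no_transgene, 102 and 28.1 in mSTING, 38.01 and 33.9 in dCTT and 34.7 and 13.7 in zfCTT RPKM. mt-Ty, for tyrosine, was at 45.8 and 13.6 in no_transgene, 71.1 and 20.5 in mSTING, 49.1 and 23.3 in dCTT and 32.8 and 14.2 in zfCTT. mt-Tg was at 31.8 and 73.4 in no_transgene, 5.84 and 52.05 in mSTING, 8.72 and 99.2 in dCTT and 2.2 and 19.4 in zfCTT. mt-Te and mt-Ty were higher in replicate 1 than in replicate 2 of every group, and mt-Tg was higher in replicate 2 of every group. None of the 3 separated zfCTT from all other libraries. mt-Tl1, for leucine, was at 34.1 and 28.3 in no_transgene, 37.5 and 29.5 in mSTING, 31.9 and 37.4 in dCTT and 19.3 and 12.6 in zfCTT. Its zfCTT values were below all others.

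Several of the remaining tRNA genes were at or near 0 in zfCTT. mt-Tq, for glutamine, was at 5.59 and 2.23 in no_transgene, 1.12 and 2.397 in mSTING, 2.02 and 4.35 in dCTT and 0 and 0 in zfCTT RPKM. With no read in either zfCTT library, 3 reads in each zfCTT library were taken as the limit. The mt-Tq mean was 2.35 times that limit in no_transgene, 1.92 times in dCTT and 1.06 times in mSTING. These ratios leave out the error of the means, which rest on 7 to 53 reads per library. mt-Tm, for methionine, was at 6.79 and 3.58 in no_transgene, 2.796 and 5.43 in mSTING, 3.905 and 7.95 in dCTT and 0 and 0.417 in zfCTT. mt-Tk, for lysine, was at 6.103 and 2.74 in no_transgene, 3.32 and 2.79 in mSTING, 4.97 and 4.67 in dCTT and 0 and 1.33 in zfCTT. mt-Tr, for arginine, was at 5.83 and 2.91 in no_transgene, 3.004 and 1.67 in mSTING, 3.96 and 2.32 in dCTT and 0 and 0.845 in zfCTT. All 3 were below the other 6 libraries in zfCTT, on 0 to 3 reads there. mt-Ts2, the other serine tRNA, was at 5.501 and 2.68 in no_transgene, 3.46 and 1.92 in mSTING, 3.96 and 2.87 in dCTT and 0.845 and 0.487 in zfCTT. mt-Tv, for valine, was at 2.09 and 2.15 in no_transgene, 0.658 and 1.97 in mSTING, 3.12 and 2.45 in dCTT and 1.45 and 0 in zfCTT. mt-Th, for histidine, was at 5.92 and 1.62 in no_transgene, 2.54 and 1.19 in mSTING, 2.68 and 2.52 in dCTT and 2.23 and 0 in zfCTT. Of these, mt-Ts2 separated zfCTT from all others and mt-Tv and mt-Th did not. At 7 tRNA genes a zfCTT library had no read, at these depths, and no other library had 0 at any tRNA gene.

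The last 8 tested tRNA genes were also low. mt-Ti, for isoleucine, was at 12.5 and 12.7 in no_transgene, 0.493 and 8.71 in mSTING, 3.12 and 17.8 in dCTT and 1.45 and 2.92 in zfCTT RPKM. mt-Tw, for tryptophan, was at 8.07 and 3.69 in no_transgene, 4.06 and 3.22 in mSTING, 5.36 and 5.57 in dCTT and 2.23 and 2.57 in zfCTT. mt-Tl2, the other leucine tRNA, was at 3.05 and 1.67 in no_transgene, 2.72 and 1.12 in mSTING, 2.28 and 3.29 in dCTT and 1.405 and 1.21 in zfCTT. mt-Ti varied most among libraries of these 3, with mSTING replicate 1 the lowest of all 8. mt-Ta, for alanine, was at 4.18 and 3.72 in no_transgene, 9.87 and 1.97 in mSTING, 5.21 and 3.89 in dCTT and 5.78 and 1.67 in zfCTT. mt-Tn, for asparagine, was at 7.62 and 5.85 in no_transgene, 6.23 and 3.83 in mSTING, 9.36 and 5.83 in dCTT and 6.32 and 3.64 in zfCTT. mt-Tc, for cysteine, was at 18.03 and 5.54 in no_transgene, 5.33 and 4.47 in mSTING, 11.7 and 8.397 in dCTT and 3.78 and 3.05 in zfCTT. mt-Ta and mt-Tn overlapped between zfCTT and every other group. mt-Tt, for threonine, was at 11.8 and 5.75 in no_transgene, 8.47 and 4.57 in mSTING, 6.17 and 6.62 in dCTT and 2.98 and 6.01 in zfCTT. mt-Tp, for proline, was at 14.5 and 9.59 in no_transgene, 17.3 and 7.28 in mSTING, 11.5 and 14.1 in dCTT and 6.699 and 3.43 in zfCTT. mt-Tf, for phenylalanine, was not tested, since it had 0 to 4 reads in each library, and no fold is given for it.

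Across the 36 tested genes, counts were read against all 13475. Against no_transgene, 2 of 36 fell and 0 rose, where 0.156% of all genes fell, 0.928% rose and 1.08% changed in either direction. Against dCTT, 5 fell and 0 rose, where 0.171% of all genes fell, 0.913% rose and 1.08% changed. At an unadjusted p under 0.05 there were 20 of 36 against no_transgene (13.4% of all genes) and 25 against dCTT (12.7%). Against mSTING, 0 of 36 passed in limma, where 0.119% of all genes did (0.00742% lower and 0.111% higher), and 17 of 36 had an unadjusted p under 0.05, as did 11% of all genes. Groups did not overlap, with zfCTT lower, for 29 of 36 genes against no_transgene (20.8% of all genes), 25 against mSTING (24.4%) and 31 against dCTT (24.7%). All 36 tested genes had a negative difference in each of the 3 comparisons, as did 54.7%, 48.3% and 52.8% of all genes against no_transgene, mSTING and dCTT. Medians of the 13 mRNAs were −0.98, −0.97 and −1.40 on the log2 scale against no_transgene, mSTING and dCTT, beside −0.04, 0.01 and −0.02 over all genes. All 13 mRNAs had an RPKM of at least 1 in every library, so the low-value filter did not choose among them. Of the tested tRNA genes, 4 were under 1 in both zfCTT libraries and were tested only through the other groups, so the counts over 36 lean towards lower values in zfCTT. The 3 comparisons share the zfCTT libraries and are not independent of each other.

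**Figure D3:**
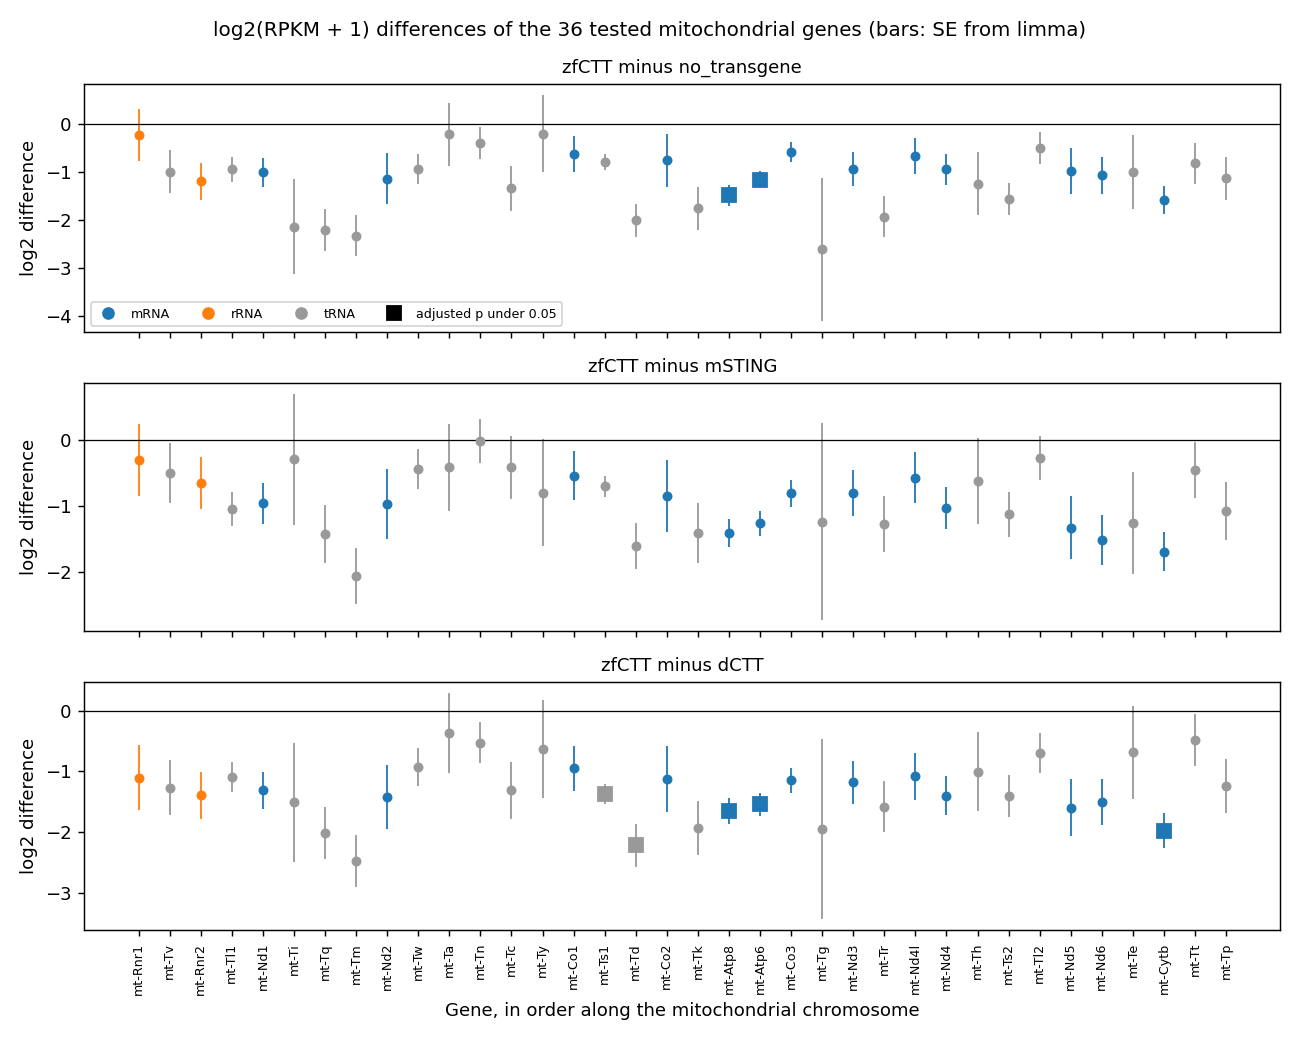
Difference of zfCTT from no_transgene, mSTING and dCTT (3 panels) in log2(RPKM + 1) for the 36 tested mitochondrial genes in chromosome order; points are coloured by RNA class, bars are SE from limma and squares mark an adjusted p under 0.05. All points lie below 0, and squares appear for 2 genes against no_transgene, none against mSTING and 5 against dCTT.

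The 2 libraries far out on the positive side of the next component, no_transgene replicate 1 and dCTT replicate 1, were left out together. The median difference of the 36 genes from no_transgene was then −0.69, in place of −1.0, and 34 of 36 were negative. No mitochondrial gene then passed. Without zfCTT replicate 1 the median was −1.17 and without zfCTT replicate 2 it was −0.92, again with 0 calls against no_transgene. All 13 mRNAs were lower in zfCTT in each of these cases, which their lack of overlap with any other library fixed in advance. Against dCTT the 5 calls became 0 without any 1 library of no_transgene or dCTT or without zfCTT replicate 1. They became 1 without zfCTT replicate 2 and 3 without either mSTING library.

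Among the groups other than zfCTT, no mitochondrial gene passed the test. For mSTING against no_transgene 0 of 36 passed in limma, as did 0% of all genes. At an unadjusted p under 0.05 there were 0 of 36, beside 3.47% of all genes. The 13 mRNAs had a median difference of 0.08, with 6 lower and 7 higher. Of the 36, 24 were lower by their means (54.6% of all genes). Both mSTING libraries were below both no_transgene libraries for 5 (17% of all genes) and above them for 1 (15.3%). For dCTT against no_transgene 0 of 36 passed, with 2 under an unadjusted 0.05 (all genes 0% and 0.267%). All 13 mRNAs were higher in dCTT by their means, by 0.16 (mt-Atp8) to 0.61 (mt-Nd5), and 5 of them had groups that did not overlap. Of the 36, 10 were lower by their means (53% of all genes). Over the 36 genes those without overlap numbered 7, where 7.75% of all genes had dCTT wholly above. For dCTT against mSTING 0 of 36 passed, with 1 under an unadjusted 0.05 (all genes 0% and 2.49%), and 32 of 36 were higher by their means, leaving 4 lower (43.6% of all genes). In 11 of 36 both dCTT libraries were above both mSTING libraries, as in 16.2% of all genes.

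Replicates of a group differed along lines that recurred between groups. Replicate 1 was above replicate 2 in all 4 groups for 13 of 36 genes, among them the mRNAs mt-Nd1, mt-Nd2, mt-Nd3, mt-Nd5 and mt-Co2, where 14.3% of all genes did the same. mt-Co2 in replicate 2 was at 0.475, 0.463, 0.471 and 0.800 times its replicate 1 level in no_transgene, mSTING, dCTT and zfCTT. Replicate 2 was the higher in all 4 groups for mt-Ti, mt-Td and mt-Tg, and for 17.3% of all genes. mt-Tg, printed above, was in replicate 2 at 2.31, 8.91, 11.4 and 8.84 times its replicate 1 level in the same order. Its neighbours on the plus strand did otherwise: mt-Nd3 was lower in replicate 2 of every group, and mt-Co3 was higher in no_transgene and dCTT and lower in mSTING and zfCTT. The meaning of the replicate numbers is not given in the sources used here, and the part of a shared preparation step in this was not tested.

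**Figure D4:**
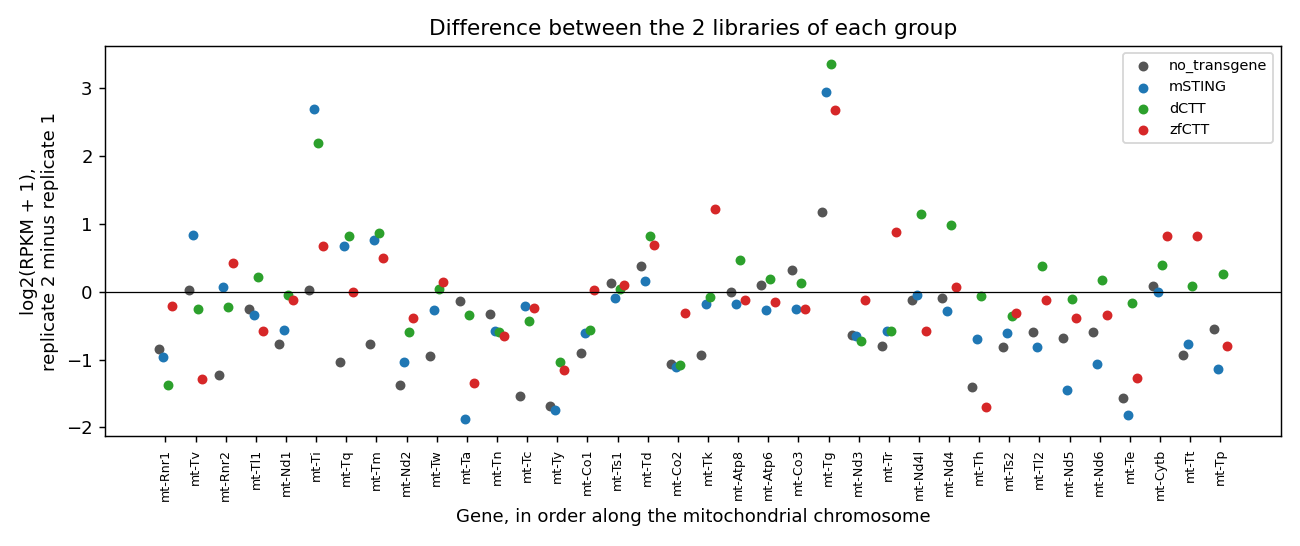
Replicate 2 minus replicate 1 in log2(RPKM + 1) (y axis) within each of the 4 groups (colours) for the 36 tested mitochondrial genes in chromosome order (x axis). mt-Tg lies above 0 in all 4 groups, and mt-Nd2 and mt-Co2 lie below 0 in all 4.

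Nuclear copies of mitochondrial DNA, which the mouse genome holds in many places, share reads with some members. Among annotated transcripts, 7 genes had a copy on chromosome 1 with at most 1 mismatched base over at least 200 aligned bases. All 7 copies lie on its minus strand, between positions 24611535 and 24616197. mt-Atp6 was identical to Gm10925 over 678 bases (chr1:24613974-24614651), and the reads listed on the copy were 92.2% to 99.7% of those on the gene in each library. mt-Co2 was identical to Gm28661 over 681 bases (98.1% to 100.6%), mt-Co3 to Gm28437 over 783 (97.3% to 99.9%) and mt-Nd4l to Gm10222 over 294 (from 92.4%, with equal counts in zfCTT replicate 1). The copy therefore carried nearly the same count as the gene in all 8 libraries. For mt-Nd4 the copy Gm28439 matched 876 of 1378 bases, and for mt-Co1 the copy Gm29216 matched 482 of 483 aligned bases of 1545. Their counts were 24.7% to 46.9% and 22.7% to 46.0% of the gene's. For mt-Co3, gene and copy had 11829 and 11805 reads in no_transgene replicate 2 and 9868 and 9863 in mSTING replicate 2. Whether reads were counted at both places or divided between them was not tested, so levels of these genes are uncertain. No annotated transcript matched mt-Cytb, mt-Atp8, mt-Nd1 or mt-Nd6 so closely. The copy of mt-Atp8 that could lie between those of mt-Atp6 and mt-Co2 on chromosome 1 is outside the annotated transcripts and was not analysed here. The nearest annotated copy of mt-Cytb, Gm11410 on chromosome 4 at 92.9% identity, held at most 0.0754% as many reads. On chromosome 2, Gm13340 matched mt-Co1 over 1545 bases at 97.6% identity and held 13.3% to 31.7% as many reads. Gm13341, also on chromosome 2, matched mt-Co2 at 95.9% identity and held 16.5% to 20.7% as many.

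The copy of mt-Nd3, Gm28438, differed from the gene at 1 of 345 aligned bases, T3C, counted from 1 at the gene's first base, and its reads were 69.6% to 93.3% of those on mt-Nd3. The opening bases of both are shown for that reason, with the differing base in capitals: the gene at chrM:9459-9481, plus strand, and the copy at chr1:24613097-24613119, minus strand.
mt-Nd3: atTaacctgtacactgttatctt
Gm28438: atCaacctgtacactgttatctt

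With the reads of the 7 near-identical copies added to their genes, the 37 genes and copies took 0.114% and 0.111% of reads in zfCTT and 0.189% to 0.299% in the other libraries. mt-Atp6 then differed by −1.14 from no_transgene (limma adjusted p = 0.0538), which did not pass, and by −1.51 from dCTT (adjusted p = 0.0261). mt-Atp8 and mt-Cytb have no annotated copy of this kind, and their differences stayed at −1.49 and −1.58 from no_transgene. If reads were listed at both gene and copy, adding the copies counts the same reads again, and whether they were was not tested. The larger shares and the mt-Atp6 values with copies added are therefore not a correction for the copies.

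**Figure D5:**
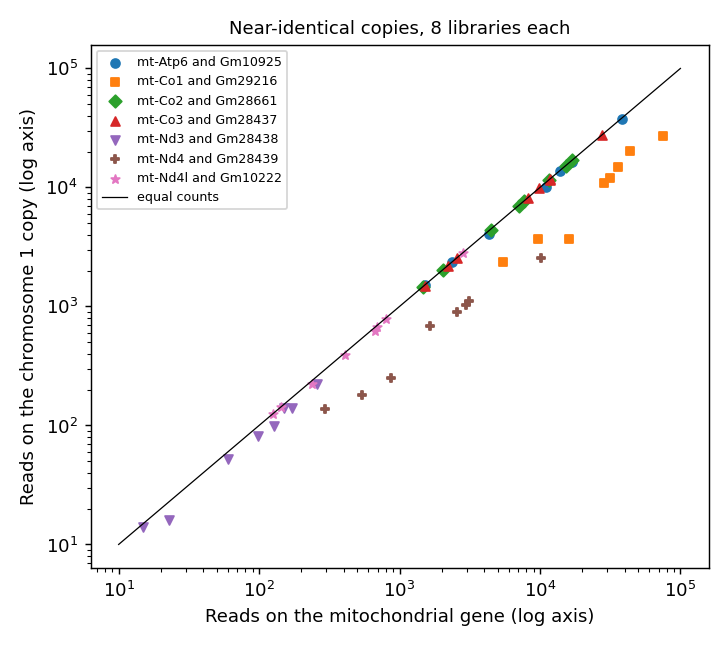
Reads on each of 7 mitochondrial genes (x axis, log) against reads on its near-identical chromosome 1 copy (y axis, log), with 8 points per pair, 1 per library; the line marks equal counts. mt-Atp6, mt-Co2, mt-Co3 and mt-Nd4l lie on the line, and mt-Co1 and mt-Nd4, whose copies are shorter than the gene, lie below it.

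Nuclear genes that act on mitochondrial RNA were examined as lists. In mitochondrial transcription 0 of 7 tested genes passed against no_transgene, with a median of −0.21, where 1.08% of all genes passed. Tfam, which packages mitochondrial DNA and helps start its transcription, was at 11.3 and 11.1 in no_transgene, 9.98 and 11.96 in mSTING, 7.96 and 11.7 in dCTT and 6.14 and 8.69 in zfCTT RPKM. Both zfCTT values were below both of no_transgene and both of mSTING, but the difference from no_transgene of −0.55 ± 0.24 did not pass (SE, limma adjusted p = 0.389). Polrmt, the mitochondrial RNA polymerase, was at 5.85 and 8.89 in no_transgene, 7.44 and 8.65 in mSTING, 6.48 and 7.73 in dCTT and 4.13 and 6.202 in zfCTT, with a difference of −0.44 ± 0.25 (limma adjusted p = 0.524). Tfb2m, which opens the promoter, was near level, with −0.05 ± 0.19.

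In RNA processing and decay 0 of 38 tested genes passed against no_transgene, with a median of 0.06. Only 1.08% of all genes passed there, so a list of this size could hold no call without differing from other genes. Pnpt1, a 3′ exonuclease of mitochondria, was at 3.68 and 4.73 in no_transgene, 5.28 and 5.93 in mSTING, 2.79 and 5.13 in dCTT and 7.94 and 10.3 in zfCTT RPKM. Its 2 zfCTT libraries were the highest of the 8, but the difference of 0.95 ± 0.27 did not pass (SE, limma adjusted p = 0.189). Lrpprc and Slirp, partners that stabilise mitochondrial mRNAs, had differences of 0.27 ± 0.40 and −0.55 ± 0.84 (adjusted p = 0.823 and 0.828). Slirp was at 32.9 RPKM in no_transgene replicate 1 and at 4.40 in replicate 2.

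Of 17 tested genes for upkeep of mitochondrial DNA, 1 rose and 0 fell in zfCTT against no_transgene, where 0.928% of all genes rose and 0.156% fell. This was Cmpk2, a mitochondrial nucleotide kinase that is induced by interferon and supplies DNA precursors. Its levels were 0 and 0 in no_transgene, 17.8 and 3.698 in mSTING, 0 and 0.001401 in dCTT and 39.2 and 31.5 in zfCTT RPKM, so that no_transgene was listed at 0 and zfCTT was the highest group. The fit gave a difference of 5.17 ± 0.57 (SE, limma adjusted p = 0.0203), which depends on the pseudocount because no_transgene is at 0. Against dCTT Cmpk2 was again the 1 gene of the list that passed (adjusted p = 0.0216), and against mSTING it did not (adjusted p = 0.386).

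No nuclear gene among the partners of the mitochondrial subunits passed the test. For nuclear genes of the respiratory chain and ATP synthase 0 of 76 tested passed against no_transgene, where 1.08% of all genes passed. At that share a list of this size could hold no call without differing from other genes. Its median was −0.14, and 53 of 76 were negative, as were 54.7% of all genes. The genes with the smallest adjusted p were Ndufb4 (difference −0.66), Atp5j (−0.60) and Sdha (0.71). Both zfCTT libraries were below all others for Ndufb4 and Atp5j and above all others for Sdha. For proteins of the mitochondrial ribosome 0 of 78 passed, with a median of 0.00. For biogenesis regulators 0 of 7 passed, for genes often read as markers of mitochondrial mass 0 of 13, and for mitophagy 0 of 9, with medians of 0.00, −0.10 and −0.26. All genes tested had a median of −0.04 in that comparison. Citrate synthase (Cs), a matrix enzyme among the mass markers, was at 36.4 and 33.02 in no_transgene, 27.9 and 35.7 in mSTING, 36.4 and 29.1 in dCTT and 51.6 and 38.3 in zfCTT RPKM, and Timm23, an import channel, was at 175 and 108 in no_transgene, 97.5 and 124 in mSTING, 122 and 105 in dCTT and 88.7 and 94.2 in zfCTT. The difference between the mitochondrial and nuclear lists was not tested.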

How the data were processed

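RNA from 8 libraries, 2 for each of 4 transgene labels, was analysed from 1 table in which the authors had deposited RPKM for 53715 genes. Per the submitters' processing notes, the tools were Cutadapt 1.16 and HISAT2 2.1.0 and the builds mm10 and GRCm38. How reads were counted, by which annotation, and how strand and multiple alignments were handled is not given in the sources used here. Symbols for 53620 identifiers, coordinates and sequences came from GENCODE M21 (GRCm38). Reads were recovered from the steps of RPKM times gene length: 95.0% to 95.6% of nonzero values were whole within 0.05 of a read, and 100% of those on the mitochondrial genes. Recovered depths were 20.1 to 171 M reads. Reads in the table summed to 105% to 109% of that depth, and why was not tested.

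Values of log2(RPKM + 1) of the 13475 genes that reached 1 RPKM in 2 or more libraries were tested with limma 3.58.1 under R 4.3.3, in 1 fit with a mean per group (4 residual degrees of freedom), an intensity trend and Benjamini-Hochberg adjustment over all tested genes within each of 6 contrasts, at 0.05. The scale understates changes of low genes. Copies were found with blastn 2.17.0 (at least 200 aligned bases and 90% identity). The mitochondrial genes, the lists of nuclear genes and the tests were chosen with earlier results of these data known. Named nuclear genes were 7 with set roles in mitochondrial nucleic acid metabolism, and at most the 3 genes per list with the smallest adjusted p in zfCTT against no_transgene. Alternatives covered pseudocounts, filters, scaling, a replicate block, voom and each library left out.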

Additional observations from a re-analysis of the deposited data

How the results depend on the processing

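All 13 mRNAs were lower in zfCTT under every alternative that tested them, while calls moved across the threshold. For each of the 13, both zfCTT libraries lay below all other libraries. Leaving libraries out, or changing the pseudocount, filter, trend or block, therefore could not turn a sign. Only the scaling changes, voom and the added copies could have done so. Of the mitochondrial genes, 2 passed against no_transgene as reported. There were 0 with no filter on low values, 1 with a mean RPKM of at least 5, 1 with median-ratio scaling, 0 with voom on recovered reads and 1 with reads of near-identical copies added, an alternative chosen after seeing the data. Adding the copies may count the same reads again, so that result is not a correction for them. Against dCTT 5 passed as reported and 1 with no filter; mt-Td also lost its call with a mean RPKM of at least 5, median-ratio scaling and voom. Against mSTING 0 passed as reported and 3 among protein-coding genes alone, where both the fit and the adjustment ran over fewer genes. Without no_transgene replicate 1 and dCTT replicate 1 together, also chosen after seeing the data, 0 passed against no_transgene, 0 against dCTT, and the median over tested mitochondrial genes against no_transgene was −0.69. The cause of these moves was not tested otherwise.

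With each library left out in turn, 0 to 0 mitochondrial genes passed against no_transgene, 0 to 0 against mSTING and 0 to 3 against dCTT. Medians then ran from −1.38 to −0.69, from −1.19 to −0.67 and from −1.38 to −1.21. For mSTING against no_transgene they ran from −0.47 to 0.0791, for dCTT against no_transgene from −0.10 to 0.49 and for dCTT against mSTING from 0.15 to 0.61. The mt-Rnr1 difference of zfCTT ran from −0.66 to 0.19 against no_transgene and from −0.79 to 0.18 against mSTING, and so changed sign; without no_transgene replicate 1 and dCTT replicate 1 together it was 0.19.

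With the replicate number as a block, 6 mitochondrial genes passed against no_transgene, among them mt-Cytb (limma adjusted p = 0.0341) and mt-Td (0.0152), and 10 against dCTT, beside 432 and 409 of all genes. The numbers were not taken to pair the libraries, since correlations of replicate differences between groups ran from 0.0318 to 0.762 over all tested genes, though from 0.4125 to 0.7905 over the mitochondrial genes. Of all genes, 146 passed against no_transgene as reported, 34 unfiltered, 64 where mean RPKM was at least 5, 48 with voom and 354 among protein-coding genes alone. Against dCTT these were 146, 28, 61, 157 and 348, and against mSTING 16, 29, 2, 8 and 63 (44 with the block). Depth limits the tRNA genes most, and at 2 libraries a group each call hangs on single libraries.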
